A study of Homo sapiens with 24 samples.

Results

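The genes described here encode respiratory complexes III and IV, the electron carrier between them and the proteins that assemble them, in SW1783 cells, a human astrocytoma line. They were chosen by name: protein-coding genes of the deposited table whose symbol starts with UQCR, UQCC, COX plus a digit, COA plus a digit or MT-CO, together with MT-CYB, CYC1, CYCS, SCO1, SCO2 and SURF1. This rule found 56 of the 60675 genes in the table, 19586 of which are protein-coding. They comprise 23 subunits (4 encoded by mitochondrial DNA and 19 by nuclear DNA), 24 assembly factors, 7 alternative isoforms, the electron carrier CYCS and the supercomplex factor COX7A2L. SCO2 could not be matched by identifier and was not analysed here.

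SW1783 cells were treated for 24 h with an extract of Schisandrae Fructus (SF), the fruit of Schisandra chinensis, or with its 0.1% DMSO vehicle. The hot water extract (WESF) was given at 20, 100 or 500 µg/mL in batch A and the 70% ethanol extract (EESF) at 12.4, 62 or 310 µg/mL in batch B, each batch with a vehicle of its own (vehicle A and vehicle B). There were 3 libraries in each of the 8 groups, 24 in all, and 1 cell line was used throughout. The labels do not say whether the replicates were separate cultures, so p-values measure the spread between these libraries, which may be technical. Extract, dose in µg/mL and batch change together and cannot be told apart. Depth, the total of the expected counts, was 18727797 to 20465712 in vehicle B, 26447834 to 28461841 in vehicle A and 20713014 to 32567395 in the treated libraries.

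Complex III (the cytochrome bc1 complex) takes electrons from ubiquinol and hands them to cytochrome c, and complex IV (cytochrome c oxidase) passes them from cytochrome c to oxygen; both pump protons as they do so. The catalytic centres lie in subunits that mitochondrial DNA encodes and, in complex III, also in the nuclear-encoded CYC1 and UQCRFS1, while the remaining subunits are nuclear-encoded proteins that surround the core. Assembly factors are not part of the finished enzyme: they insert heme and copper, hold newly made subunits and join the modules. In astrocytes, as in other cells, the chain has to be built from both genomes.

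The labelled cell type was compared with its markers. Of 12 astrocyte markers 7 passed the filter on low counts. VIM was at 4780 to 4876 CPM (counts scaled to the size of the library) in vehicle A, whereas the mean levels of GFAP, S100B, AQP4, ALDH1L1 and SLC1A2, which define mature astrocytes, were at most 0.401 CPM in every group. Other astrocyte markers were expressed in vehicle A, with means of 2836 CPM for CD44, 204.3 for GJA1, 81.7 for SOX9 and 31.8 for SLC1A3. ALDOC and NES were lower there, at 7.44 and 7.29 CPM. The line thus expressed intermediate filament and matrix genes, COL1A1 being at 3702 to 3871 CPM in vehicle A, and part of the astrocyte list. It had almost no RNA of the 5 genes of mature astrocytes. The leukocyte markers AIF1 and P2RY12 were at 0 in all libraries of the vehicles and high doses, as was the oligodendrocyte marker MOG.

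Because some nuclear genes of these complexes share promoter elements, the 300 bases around the start of 4 nuclear genes are shown (250 before to 50 after it, RefSeq, GRCh38.p14, coding strand, 5′ to 3′). COX5B is shown as the complex IV subunit the study centred on, COX19 and COX18 as the assembly factors with the largest rises under both extracts, and COA3 as the one with the largest fall under WESF. Capitals mark matches to CCGGAAG (the core bound by ETS factors such as GABP) or to the element of nuclear respiratory factor NRF1, GCGC and TGCGC with any 1 base between them, searched on both strands. The COX5B window lies at chr2:97645812-97646111 on the plus strand, COX19 at chr7:975500-975799, COX18 at chr4:73069667-73069966 and COA3 at chr17:42798655-42798954, these 3 on the minus strand.
COX5B: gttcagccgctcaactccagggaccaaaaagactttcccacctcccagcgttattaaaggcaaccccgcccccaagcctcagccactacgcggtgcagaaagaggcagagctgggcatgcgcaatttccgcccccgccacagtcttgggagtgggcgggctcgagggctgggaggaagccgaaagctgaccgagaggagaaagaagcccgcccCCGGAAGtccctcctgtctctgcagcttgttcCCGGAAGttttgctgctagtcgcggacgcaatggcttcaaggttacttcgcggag
COX19: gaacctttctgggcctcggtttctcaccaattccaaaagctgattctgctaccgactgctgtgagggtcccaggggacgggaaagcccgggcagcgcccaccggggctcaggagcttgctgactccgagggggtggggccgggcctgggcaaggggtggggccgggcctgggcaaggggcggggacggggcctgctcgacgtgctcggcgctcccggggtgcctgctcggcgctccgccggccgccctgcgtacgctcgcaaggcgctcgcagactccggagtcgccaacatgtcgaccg
COX18: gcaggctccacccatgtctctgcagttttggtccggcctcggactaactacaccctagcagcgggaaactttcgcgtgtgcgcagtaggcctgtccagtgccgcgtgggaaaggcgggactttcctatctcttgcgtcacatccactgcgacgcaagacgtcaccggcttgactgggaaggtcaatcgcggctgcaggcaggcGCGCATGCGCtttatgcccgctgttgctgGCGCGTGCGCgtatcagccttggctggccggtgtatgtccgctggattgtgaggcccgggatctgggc
COA3: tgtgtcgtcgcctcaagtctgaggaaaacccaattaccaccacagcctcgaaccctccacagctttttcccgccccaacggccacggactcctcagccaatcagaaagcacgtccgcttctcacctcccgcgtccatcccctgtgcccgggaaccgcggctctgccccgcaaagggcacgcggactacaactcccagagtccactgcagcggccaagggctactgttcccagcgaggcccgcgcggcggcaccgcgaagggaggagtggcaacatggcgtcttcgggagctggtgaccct
Of the 52 nuclear genes 44 had a promoter in the RefSeq table. The NRF1 motif was found in 22.7% of these (10 of 44) against 5.78% of all 35116 promoters. The ETS motif was found in 36.4% (16 of 44) against 10.3%, and the YY1 motif AAGATGGC in 6.82% (3 of 44) against 2.89%. The 44 held 1 promoter per gene, while the 35116 were not reduced in this way or limited to tested genes, so the sets are not alike. COX18 held the NRF1 motif 2 times and COX19, which moved with it, held none of the 3 motifs, as did COA3. These are letter matches, which show neither a bound site nor a cause.

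In the 6 vehicle libraries the mitochondrially encoded subunits lay more than an order of magnitude above the other classes. Nuclear-encoded subunits (10.8 to 251.1 CPM per kb) and assembly factors (2.05 to 75.9) overlapped in level. Per kb of the canonical transcript, the 4 mitochondrially encoded subunits had a median of 12900 CPM, the 19 nuclear-encoded subunits of 72.9 and the 24 assembly factors of 12.6. MT-CO2 (18290 ± 1499 CPM per kb, SD, n = 6) and MT-CO1 (15130 ± 1023) led, and their libraries did not overlap. Among nuclear subunits COX8A was highest (251.1 ± 27.9) and overlapped COX6B1 (209.4 ± 13.6), and COX5B was among the lower ones (33.7 ± 4.47). COX18, which inserts part of MT-CO2 into the inner membrane, had the lowest level of the assembly factors (2.05 ± 0.196). Of the tissue-restricted isoforms, COX4I2, COX6A2, COX7A1, COX7B2 and COX8C did not pass the filter and had 0 to 10 expected counts in any library. Thus 51 of the 56 genes were tested.

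At 500 µg/mL WESF, 14 of the 51 genes were higher and 17 lower than vehicle A (adjusted p under 0.05, edgeR). Both shares lie near or below the background of this strong treatment, in which 34.3% of 13129 tested genes were higher and 34.6% lower. At 310 µg/mL EESF, 18 were higher and 7 lower than vehicle B, where 29.3% of 13092 genes were higher and 28.7% lower. Under EESF the median log2 fold change was 0.093 over the 51 genes and 0.007 over all genes, and under WESF -0.054 and 0.001. The Spearman correlation of fold change with transcript length over all genes, a description, was -0.298 at 310 µg/mL EESF and -0.019 at 500 µg/mL WESF. Tested genes with canonical transcripts under 1000 bases had a median of 0.129 with EESF (704 genes) and of -0.047 with WESF (705 genes); the part of length in these values was not tested. Without replicate 3 of vehicle A 9 genes were higher with WESF, and without replicate 3 of vehicle B 12 were lower with EESF. All 31 genes called under WESF had groups that did not overlap, and 23 of 25 under EESF. These genes were chosen by p-value on the same libraries, and overlap was not counted over all genes. The count therefore adds no support to the calls. Changes were small: at a fold beyond 1.5, WESF left 3 genes higher and 1 lower (background 11.1% and 13%) and EESF 3 higher and 0 lower (8.21% and 9.17%).

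**Figure D1:**
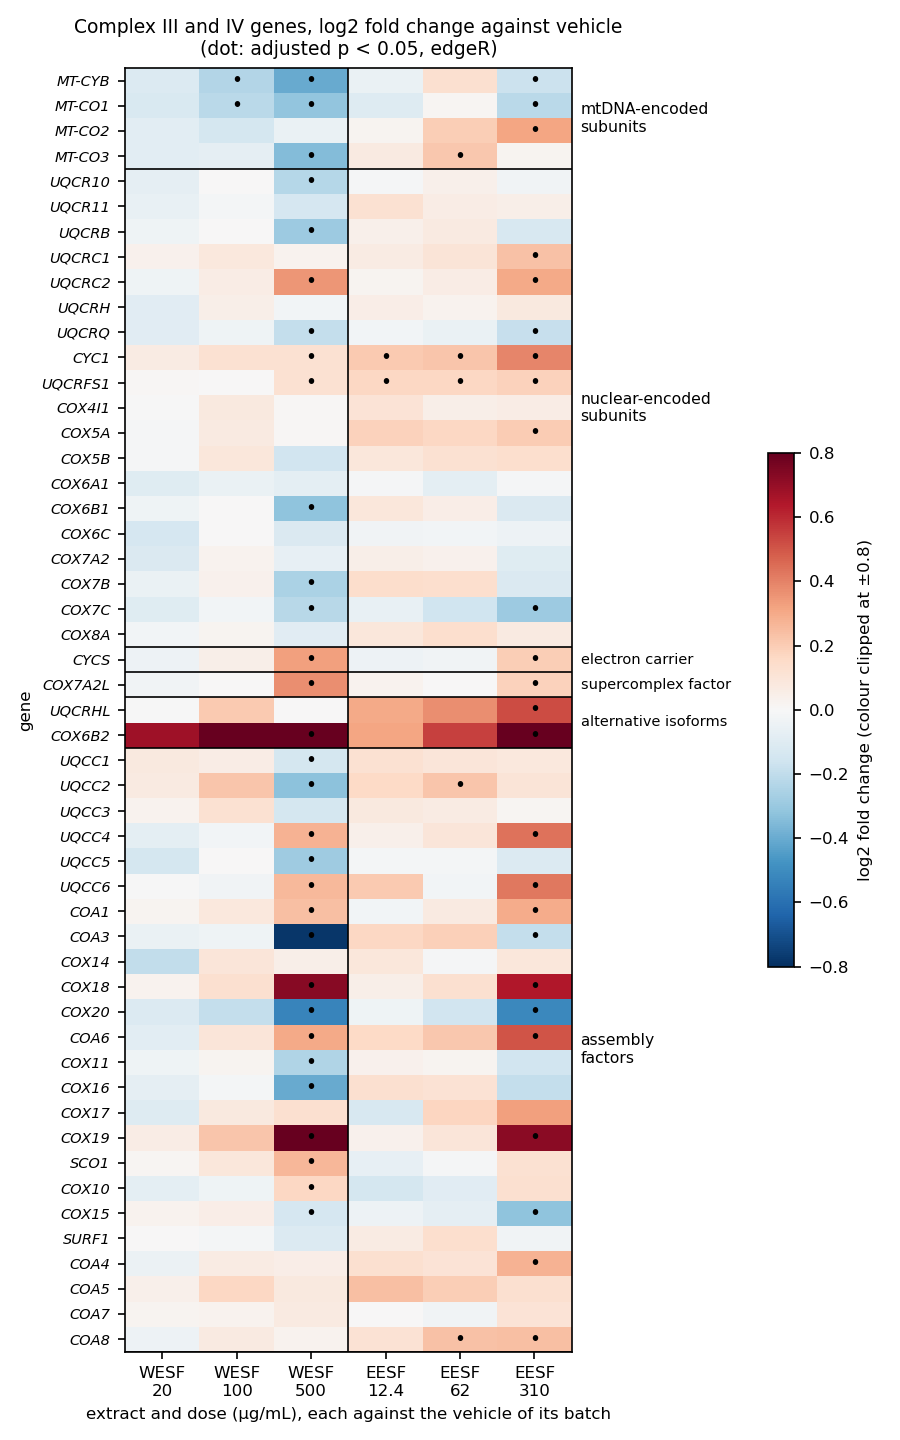
Log2 fold change (colour, clipped at ±0.8) of the 51 tested genes at each dose in µg/mL against the vehicle of its batch, 3 libraries per group; dots mark an adjusted p under 0.05. Calls gather in the columns of the 500 µg/mL WESF and 310 µg/mL EESF groups, where COX6B2, COX18 and COX19 were higher and COX20 lower under both extracts.

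Of the 4 mitochondrially encoded catalytic subunits 3 were lower at the high dose of WESF (background 34.6%). MT-CYB, the cytochrome b of complex III, stood at 6916, 6758 and 7337 CPM in vehicle A and at 6170, 4683 and 5052 CPM in the high-dose WESF libraries. It fell by 0.40 on the log2 scale (SE 0.075, adjusted p = 1.37e-04), and the groups did not overlap. MT-CO1, which holds the oxygen-binding heme of complex IV, was at 21930, 21810 and 21930 CPM in vehicle A and at 19150, 15880 and 17890 CPM with WESF. MT-CO1 fell by 0.31 (SE 0.059, adjusted p = 1.53e-04) and MT-CO3, the third core subunit, by 0.35 (SE 0.074, adjusted p = 5.22e-04). MT-CO2, which takes electrons from cytochrome c, was at 11420, 12150 and 11370 CPM in vehicle A and at 12720, 9710 and 11240 CPM with WESF, overlapping groups with a log2 difference of -0.05 (SE 0.072, adjusted p = 0.52).

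Under EESF the same genes parted. MT-CO2 was at 13090, 13860 and 13200 CPM in vehicle B and at 16230, 16080 and 17580 CPM at 310 µg/mL, so every treated library was above every vehicle library. It rose by 0.31 (SE 0.051, adjusted p = 2.16e-04). MT-CO1 fell by 0.22 (SE 0.056, adjusted p = 0.00553), from 24820, 24700 and 24800 CPM to 23340, 20420 and 20220 CPM, and MT-CYB fell by 0.17 (SE 0.052, adjusted p = 0.0132). MT-CO3 was at 9115, 8998 and 8328 CPM in vehicle B and at 9586, 8540 and 8689 CPM with EESF, overlapping groups with a difference of 0.02 (SE 0.056, adjusted p = 0.773). Against the low-dose groups in place of the vehicles, the MT-CO1 calls were lost (-0.19, adjusted p = 0.139 for WESF, and -0.12, adjusted p = 0.0661 for EESF). The call for MT-CYB was lost without replicate 2 of high-dose EESF (-0.16, adjusted p = 0.0503).

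**Figure D2:**
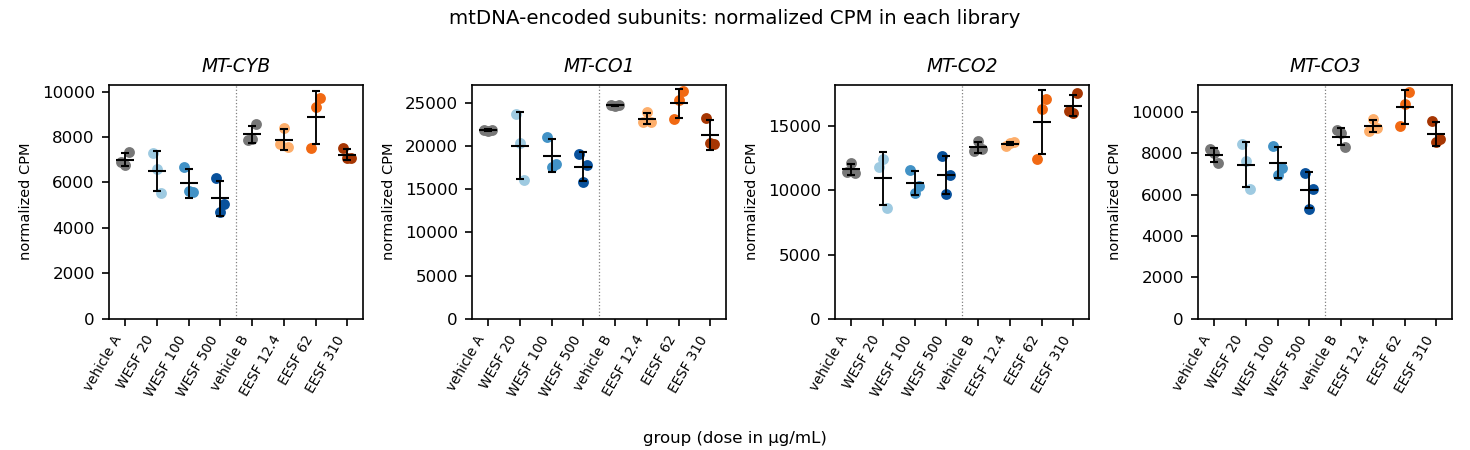
Normalized CPM (linear axis from 0) of the 4 mitochondrially encoded subunits in each of 24 libraries (points), with the mean and SD of each group of 3. MT-CO1 lies at 21810 to 21930 CPM in vehicle A, while some treated groups spread more widely, as from 16040 to 23770 CPM at 20 µg/mL WESF.

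Spread within some treated groups was part of this pattern. At 20 µg/mL WESF the MT-CO1 libraries were at 23770, 20440 and 16040 CPM, which enclosed vehicle A on both sides. At 62 µg/mL EESF the MT-CO2 libraries were at 12480, 16330 and 17150 CPM, the first below all vehicle B libraries and the others above them. The share of all expected counts taken by mitochondrially encoded mRNA moved with these values. It was 9.02% to 9.21% in vehicle A and 6.76% to 8.45% with 500 µg/mL WESF, 10.2% to 10.5% in vehicle B and 10.1% to 10.9% with 310 µg/mL EESF, and up to 12.5% at 62 µg/mL EESF. Leaving mitochondrial genes out of the library sizes ended none of the 70 calls. In bulk RNA, fewer mitochondrial genomes and less RNA from each cannot be told apart.

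The other 9 mRNAs of mitochondrial DNA were compared as a fixed list. At the high dose of WESF 5 of 9 were lower and 0 higher (median log2 fold change -0.19; background 34.3% higher and 34.6% lower), led by MT-ND1 (-0.71) and MT-ND2 (-0.68), subunits of complex I. With EESF 3 were higher and 2 lower (median -0.01), near the background of 29.3% and 28.7%, MT-ND6 being at 0.58 and MT-ATP8, a subunit of ATP synthase, at 0.49. Genes transcribed from the same strand as one precursor thus had different values under EESF, MT-CO2 and MT-ATP8 being higher and MT-ND1 lower (-0.17, adjusted p = 0.0224).

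The 2 nuclear-encoded redox subunits and cytochrome c, 3 genes of 3, rose under both extracts (background 34.3% with WESF and 29.3% with EESF). CYC1, the cytochrome c1 of complex III, was at 94.29, 86.76 and 87.19 CPM in vehicle B and at 113.5, 118.9 and 119.3 CPM with 310 µg/mL EESF. This was a rise of 0.39 (SE 0.054, adjusted p = 5.67e-05) with no overlap. With 500 µg/mL WESF it was at 104.1, 101.7 and 102.3 CPM beside 100.7, 87.71 and 94.29 CPM in vehicle A, a rise of 0.12 (SE 0.050, adjusted p = 0.0364). UQCRFS1, the Rieske iron-sulfur protein, rose by 0.12 with WESF (SE 0.049, adjusted p = 0.0378) and by 0.19 with EESF (SE 0.056, adjusted p = 0.012). CYCS, cytochrome c itself, rose by 0.33 with WESF (SE 0.044, adjusted p = 3.58e-06), from 209.5, 195.4 and 197.9 CPM to 250.8, 248.2 and 259.0 CPM, and by 0.20 with EESF (SE 0.051, adjusted p = 0.00498).

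The rises of CYC1 and UQCRFS1 under WESF were close to the threshold. CYC1 lost its call without replicate 2 (0.07, adjusted p = 0.245) or 3 (0.12, adjusted p = 0.0542) of vehicle A and without replicate 1, 2 or 3 of high-dose WESF (adjusted p = 0.131, 0.0577 and 0.0842). UQCRFS1 lost its call without replicate 2 or 3 of vehicle A (adjusted p = 0.0785 and 0.084) or replicate 1 or 3 of high-dose WESF (0.134 and 0.203), and under EESF without replicate 2 of vehicle B (0.15, adjusted p = 0.0893) or replicate 3 of high-dose EESF (0.15, adjusted p = 0.0595).

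Structural subunits changed in either direction. UQCRC2, one of the large core proteins of complex III, rose from 87.73, 90.46 and 86.78 CPM to 111.3, 117.4 and 110.8 CPM with WESF (0.36, SE 0.044, adjusted p = 1.84e-06) and by 0.30 with EESF (SE 0.051, adjusted p = 2.62e-04). Its partner UQCRC1 rose by 0.23 with EESF (adjusted p = 0.00956), a call lost without replicate 2 of vehicle B (0.18, adjusted p = 0.0735), and was at 0.03 with WESF. COX5A, a matrix-side subunit of complex IV, rose by 0.21 with EESF (adjusted p = 0.00913) and lost its call without replicate 3 of vehicle B (0.17, adjusted p = 0.0553) or against the low dose (0.02, adjusted p = 0.793). COX7A2L, which links complex III to complex IV, was at 55.96, 49.88 and 49.62 CPM in vehicle A and at 66.53, 67.02 and 67.28 CPM with WESF, above every vehicle library (0.37, SE 0.051, adjusted p = 6.56e-06). It rose by 0.18 with EESF (adjusted p = 0.0219), a call that was lost without replicate 2 (0.13, adjusted p = 0.152) or 3 (0.17, adjusted p = 0.0749) of vehicle B, or without replicate 2 (adjusted p = 0.056) or 3 (adjusted p = 0.0732) of high-dose EESF.

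Of the 19 nuclear-encoded subunits 6 fell with WESF, 31.6% beside the 34.6% of all genes. COX6B1, which sits between the monomers of complex IV, was at 111.8, 102.3 and 92.81 CPM in vehicle A and at 82.79, 76.83 and 85.55 CPM at 500 µg/mL, a fall of 0.32 (SE 0.060, adjusted p = 1.44e-04) with no overlap. UQCRB (-0.29), COX7B (-0.26), UQCR10 (-0.23), COX7C (-0.22) and UQCRQ (-0.19) also fell. COX7C and UQCRQ were called under EESF as well: COX7C was at 94.34, 83.08 and 79.94 CPM in vehicle B and at 70.73, 70.74 and 69.22 CPM with EESF, a fall of 0.29 (SE 0.062, adjusted p = 0.00169). The fall of UQCRQ under EESF (-0.19, adjusted p = 0.0473) lost its call without replicate 1 (-0.10, adjusted p = 0.214) or 2 (adjusted p = 0.0545) of vehicle B or replicate 3 of high-dose EESF (adjusted p = 0.142). In all, 3 of 19 nuclear-encoded subunits rose and 6 fell with WESF, all 3 that rose and 3 of those that fell belonging to complex III, and with EESF 5 rose and 2 fell. The shares that rose were 15.8% with WESF (background 34.3%) and 26.3% with EESF (29.3%), and the share that fell with EESF was 10.5% (28.7%). COX4I1, the main isoform of the largest nuclear subunit of complex IV, had a log2 difference of 0.01 with WESF (95% interval -0.10 to 0.12) and of 0.06 with EESF (-0.09 to 0.21).

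COX5B, a zinc-binding subunit of complex IV (chr2:97646062-97648383, GRCh38), passed the test in none of the 6 dose comparisons fitted without a replicate block. With that block in the edgeR fit it was lower at 500 µg/mL WESF (-0.156, adjusted p = 0.042), although same-numbered libraries of a dose and its vehicle did not pair. Its levels were 27.39, 23.58 and 22.71 CPM in vehicle A and 23.04, 20.80 and 22.25 CPM with 500 µg/mL WESF, groups that overlapped (-0.16, SE 0.072, adjusted p = 0.064). In batch B they were 25.26, 22.56 and 18.20 CPM in the vehicle and 18.13, 27.29 and 26.95 CPM with 310 µg/mL EESF, so that the treated libraries held both the lowest and the highest value (0.13, SE 0.146, adjusted p = 0.453). The lower and medium doses gave differences between -0.01 and 0.12. Single libraries decided these values: without replicate 1 of high-dose EESF the difference was 0.30 (adjusted p = 0.0181), without replicate 3 of vehicle B it was 0.01 (adjusted p = 0.951), and without replicate 3 of vehicle A the WESF difference was -0.21 (adjusted p = 0.02).

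**Figure D3:**
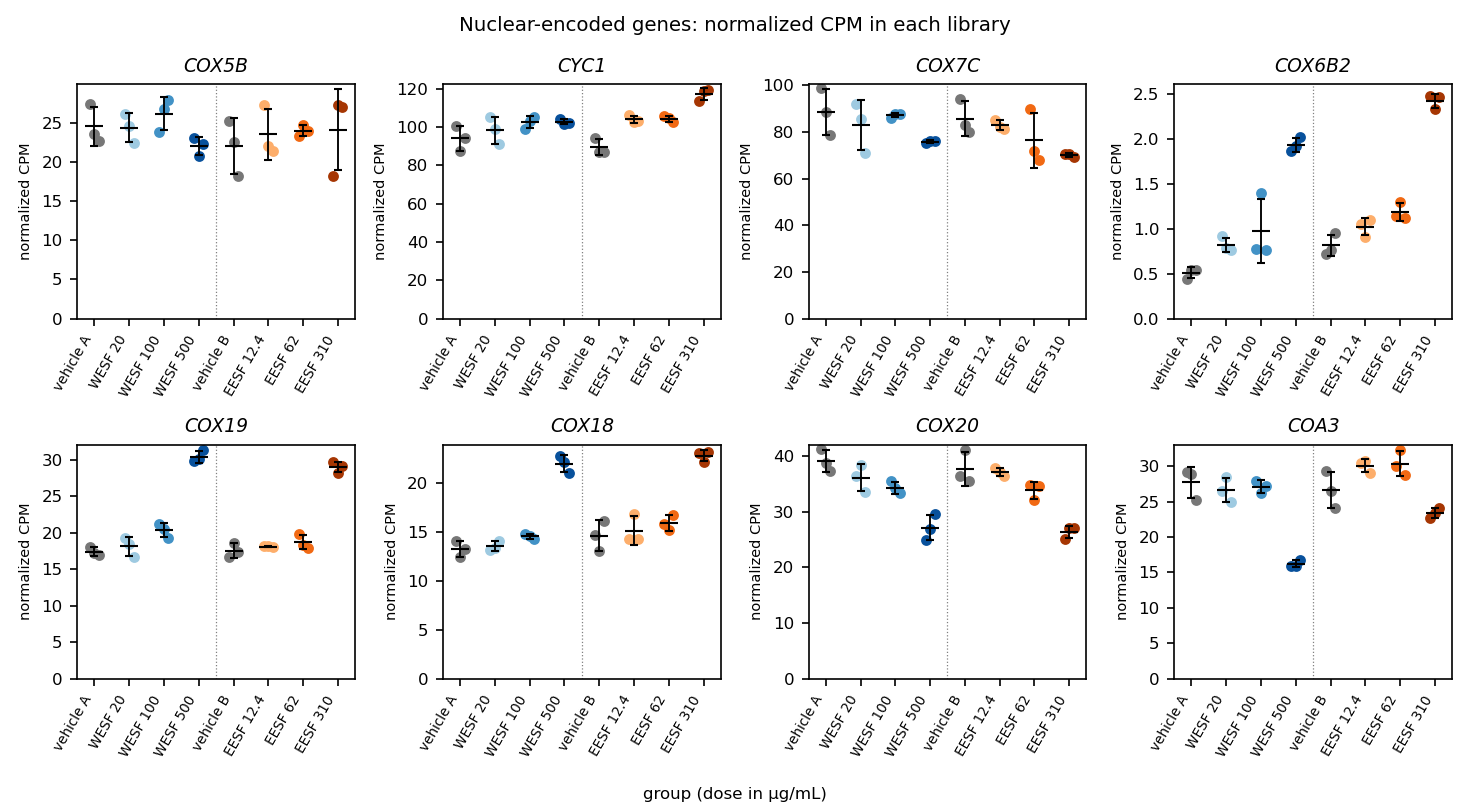
Normalized CPM (linear axes from 0) of 8 nuclear-encoded genes in each library (points), with the mean and SD of each group of 3, by extract and dose in µg/mL. The vehicle and treated points of COX5B overlap, while those of COX19, COX18, COX20 and COX6B2 at 500 µg/mL WESF and 310 µg/mL EESF stand apart from the vehicles.

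The changes beyond 1.5-fold at the high doses lay in assembly factors of complex IV and in 1 isoform. COX19, a small intermembrane-space protein of copper delivery (chr7:898778-975549), was at 18.03, 17.25 and 16.86 CPM in vehicle A and at 29.77, 30.06 and 31.32 CPM with 500 µg/mL WESF. This was a 1.75-fold rise (log2 0.80, SE 0.058, adjusted p = 2.50e-09). In batch B it went from 16.65, 18.62 and 17.36 CPM to 29.66, 28.21 and 29.08 CPM, a 1.65-fold rise (0.72, SE 0.066, adjusted p = 2.25e-06). COX18 (chr4:73052362-73069755) was at 14.12, 12.48 and 13.24 CPM in vehicle A and 22.78, 22.18 and 21.07 CPM with WESF, a 1.66-fold rise (0.73, SE 0.068, adjusted p = 5.39e-08), and rose 1.56-fold with EESF (0.64, SE 0.079, adjusted p = 2.45e-05). No vehicle library of either gene overlapped a high-dose library.

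COX6B2, the testis-enriched isoform of COX6B1, rose 3.76-fold with WESF (1.91, SE 0.229, adjusted p = 1.17e-06) and 2.98-fold with EESF (1.57, SE 0.196, adjusted p = 2.54e-05). Its level was low throughout, 0.442, 0.542 and 0.545 CPM in vehicle A against 1.86, 1.92 and 2.02 CPM with WESF, and 0.722, 0.767 and 0.949 CPM in vehicle B against 2.47, 2.33 and 2.46 CPM with EESF. COX6B1, with COX6B2 an alternative form of the same subunit, was at 102.3 CPM on average in vehicle A. UQCRHL, a retrocopy of UQCRH, rose by 0.52 with EESF (adjusted p = 0.0282) with overlapping groups, and reads of the copy and its parent cannot be divided with certainty. It lost its call without replicate 2 or 3 of vehicle B (adjusted p = 0.138 and 0.109) or of high-dose EESF (0.0718 and 0.0994).

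COX20 and COA3, which bind newly made MT-CO2 and MT-CO1, went the other way. COX20 (chr1:244835616-244845057) was at 41.28, 38.77 and 37.27 CPM in vehicle A and at 24.99, 26.91 and 29.52 CPM with WESF (-0.53, SE 0.064, adjusted p = 1.32e-06). In batch B it was at 36.45, 41.18 and 35.50 CPM and then at 25.13, 27.06 and 27.02 CPM with EESF (-0.51, SE 0.070, adjusted p = 5.28e-05). It was thus lower in 6 of 6 high-dose libraries than in any vehicle library. COA3 (chr17:42795147-42798704) fell from 29.19, 28.86 and 25.20 CPM to 15.97, 15.92 and 16.78 CPM with WESF (-0.78, SE 0.068, adjusted p = 2.79e-08). With EESF it was at 22.66, 23.45 and 24.09 CPM beside 29.28, 26.50 and 24.12 CPM in vehicle B, a smaller fall (-0.19, adjusted p = 0.0444) that lost its call in each of 5 fits without 1 library (adjusted p up to 0.188, without replicate 1 of vehicle B) and with DESeq2 (adjusted p = 0.0725).

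These 2 genes share exon sequence with neighbours on the opposite strand, COX20 over 76.6% of its exon bases with HNRNPU and COA3 over 42.3% with WNK4. The strand setting of the counting is not given in the sources used here, so reads of a gene and its antisense partner cannot be told apart. COX19 shares 17.7% with ADAP1 on its own strand. Among genes named elsewhere, COX16 shares 37.8% with the readthrough gene SYNJ2BP-COX16, UQCC2 21.9% with ITPR3 and UQCC6 18.2% with HSP90B1, the last 2 on opposite strands. COX8A shares 35.4%, COX6B2 29.1%, COX15 20.7% and COX17 20.0% with another gene on the same strand, and UQCR10 24.5% with one on the opposite strand.

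Of the 6 copper delivery factors, COX19, COA6 and SCO1 rose with WESF while COX16 (-0.41) and COX11 (-0.24) fell, and with EESF 2 rose and 0 fell, beside 34.3% higher and 34.6% lower of all genes with WESF and 29.3% and 28.7% with EESF. COA6, which keeps the copper sites reduced, rose by 0.30 with WESF and 0.51 with EESF (adjusted p = 0.00277 and 9.42e-04), and SCO1, a copper chaperone, rose by 0.27 with WESF (adjusted p = 7.84e-05) and was at 0.12 with EESF (adjusted p = 0.0818). COX17, also a factor of copper delivery, was at 0.13 with WESF and 0.33 with EESF (adjusted p = 0.317 and 0.0528), with overlapping groups. Of the factors of heme a synthesis and insertion, COX15 fell by 0.13 with WESF and by 0.32 with EESF (adjusted p = 0.0264 and 0.00129). COX10 rose by 0.16 with WESF (adjusted p = 0.0361), and SURF1 was at -0.11 with WESF and -0.03 with EESF. COX10 under WESF lost its call in 5 of the 6 fits without 1 library, that without replicate 1 of high-dose WESF giving 0.11 (adjusted p = 0.189), and COX15 without replicate 2 of vehicle A or replicate 1 or 3 of high-dose WESF (adjusted p = 0.0795, 0.0907 and 0.09).

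Of the 6 factors of complex III assembly, 2 rose and 3 fell with WESF, and with EESF 2 rose and 0 fell, 5 of the 6 values being positive; all genes were at 34.3% higher and 34.6% lower with WESF and 29.3% and 28.7% with EESF, so that 2 of 6 is near the background. The 4 other complex IV assembly factors had positive values with both extracts, of which 0 passed the test with WESF and 2 with EESF. Over all genes, 6551 of 13129 had negative values with WESF and 6454 of 13092 with EESF. UQCC4 rose by 0.28 with WESF and by 0.43 with EESF (adjusted p = 0.0116 and 0.00191), the first being lost without replicate 3 of vehicle A (0.20, adjusted p = 0.0652). UQCC6 rose by 0.26 and 0.42 (adjusted p = 0.0495 and 0.0321), with 5 of the 6 WESF fits without 1 library (adjusted p up to 0.212, without replicate 3 of high-dose WESF) and 3 of the EESF fits (up to 0.173, without replicate 2 of high-dose EESF) losing the call. UQCC2, which with UQCC1 handles newly made cytochrome b, fell by 0.33 with WESF (SE 0.060, adjusted p = 1.37e-04) and was at 0.11 with EESF (adjusted p = 0.189). UQCC5 fell by 0.29 with WESF (adjusted p = 0.00495) and was at -0.11 with EESF.

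Subunits and assembly factors were then set side by side. With WESF at 500 µg/mL 3 of 23 subunits rose and 9 fell (median log2 fold change -0.12), against 8 and 8 of 24 assembly factors (median 0.05). With EESF at 310 µg/mL the counts were 6 and 4 for subunits (median 0.02) and 8 and 3 for assembly factors (median 0.11). Beside the background of 34.3% higher and 34.6% lower with WESF, 13% of the subunits were higher and 39.1% lower, and 33.3% of the assembly factors were in each direction; with EESF (29.3% and 28.7%) these shares were 26.1% and 17.4% for subunits and 33.3% and 12.5% for assembly factors. The difference of the medians, subunits minus assembly factors, was -0.17 with WESF and -0.09 with EESF. With WESF it was -0.28 when only assembly factors with little exon overlap were used, and -0.14 with nuclear-encoded subunits alone. Members share libraries and are not replicates, so no test was made of these medians.

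**Figure D4:**
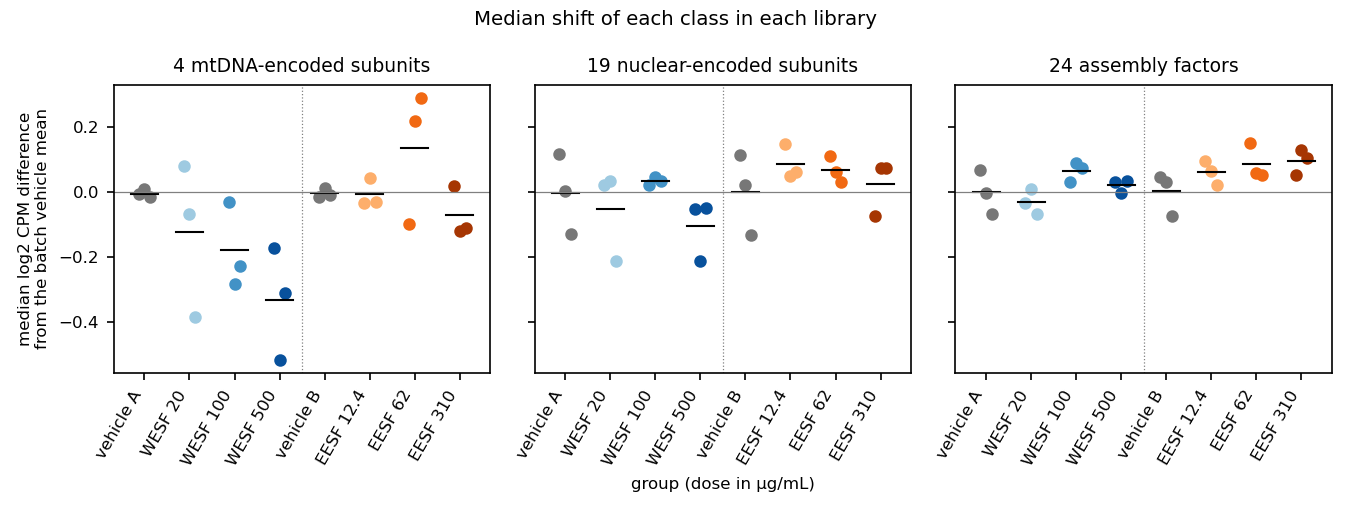
Median log2 CPM difference from the mean of the batch's vehicle libraries for each class (panels) in each of 24 libraries (points); bars are group means of 3 libraries, and the x axis gives extract and dose in µg/mL. The 3 high-dose WESF libraries lie at -0.52 to -0.17 for mitochondrially encoded subunits, whereas nuclear-encoded subunits of the vehicles already span -0.13 to 0.12.

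By library, the median of the 19 nuclear-encoded subunits was -0.21 to -0.05 at 500 µg/mL WESF, inside the range of vehicle A (-0.13 to 0.12) in 2 of 3 libraries. The mitochondrially encoded median was -0.52 to -0.17 against -0.02 to 0.01 in vehicle A, with no overlap. Replicate 3 of 20 µg/mL WESF (-0.385) and replicates 2 and 3 of 100 µg/mL WESF (-0.283 and -0.226) lay within this high-dose range. Assembly factors lay between -0.004 and 0.035 with WESF, inside the range of vehicle A (-0.07 to 0.07), and at 0.0521, 0.128 and 0.106 with EESF, above every vehicle B library (-0.0738, 0.0317 and 0.0479). The 3 libraries of 62 µg/mL EESF (0.15, 0.0589 and 0.0541) and 2 of the 3 of 12.4 µg/mL (0.0956 and 0.0642) also lay above them. The subunit minus assembly difference of single libraries was -0.23 to -0.10 with high-dose WESF and -0.04 to 0.03 in vehicle A, groups that did not overlap. With high-dose EESF it was -0.12 to -0.06, and in vehicle B -0.04 to 0.05, again without overlap. At lower doses it was -0.07 to -0.04 at 100 and -0.16 to 0.06 at 20 µg/mL WESF, and -0.06 to 0.01 at 62 and -0.01 to 0.03 at 12.4 µg/mL EESF. Replicate 3 of 20 µg/mL WESF (-0.163) thus lay within the range of the high dose of WESF, and replicate 1 of 62 µg/mL EESF (-0.064) within that of the high dose of EESF.

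The lower doses changed few of these genes. At 100 µg/mL WESF 0 genes were higher and 2 lower (background 1.89% and 2.20%): MT-CYB (-0.24, SE 0.061, adjusted p = 0.0441) and MT-CO1 (-0.21, SE 0.057, adjusted p = 0.0491). MT-CYB was at 6677, 5612 and 5561 CPM there, below each vehicle A library. Both calls were lost without replicate 2 or 3 of vehicle A (for MT-CYB adjusted p = 0.119 and 0.124, for MT-CO1 0.167 and 0.0944) or of medium-dose WESF (0.201 and 0.225, and 0.216 and 0.231), and without replicate 1 of vehicle A 6 genes were called higher. At 20 µg/mL WESF the count was 0 in each direction (background 0%) with edgeR and DESeq2, and 470 of 13131 genes had an unadjusted p under 0.05. At a fold beyond 1.5 the count at 100 µg/mL was 0 in each direction (background 0.0915% and 0.183%). COX19 and COX20 had differences of 0.22 and -0.19 at 100 µg/mL (adjusted p = 0.0585 and 0.0614), each with groups that did not overlap.

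At 62 µg/mL EESF 5 genes were higher and 0 lower (background 6.90% and 8.48%), namely CYC1 (0.22), UQCRFS1 (0.17), MT-CO3 (0.22), COA8 (0.23) and UQCC2 (0.22). At 12.4 µg/mL 2 were higher and 0 lower (3.11% and 6.24%), CYC1 (0.21, SE 0.045, adjusted p = 0.0122) and UQCRFS1 (0.17, SE 0.046, adjusted p = 0.036). CYC1 was at 106.2, 102.4 and 103.4 CPM at 12.4, at 105.9, 104.5 and 102.4 CPM at 62 and at 113.5, 118.9 and 119.3 CPM at 310 µg/mL, above each vehicle B library (94.29, 86.76 and 87.19 CPM) at every dose. These 3 comparisons share their vehicle libraries. At a fold beyond 1.5 the counts were 0 in each direction at 62 (background 0.47% and 0.285%) and 12.4 µg/mL (0.155% and 0.116%). Without replicate 1 of vehicle B 10 genes were called higher at 62 and 8 at 12.4 µg/mL; without its replicate 2 or 3, 1 and 1 at 62 and 0 and 1 at 12.4. Calls at 62 also fell to 3 and 2 without replicate 2 or 3 of medium-dose EESF, and without replicate 1 only 2 of the 5 were kept, and at 12.4 to 0 without any library of low-dose EESF. The Spearman correlation of fold change with transcript length was -0.51 at 62 and -0.519 at 12.4 µg/mL EESF, and -0.248 at 100 and -0.063 at 20 µg/mL WESF, and the 19 nuclear-encoded subunits are short, with a median canonical length of 916 bases against 3389 for all tested; the part of length in these calls was not tested.

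The extracts were compared at their high doses through the interaction over 12 libraries. The difference passed the test in 5 of the 51 genes, all with the EESF value above the WESF value (background 12.7%), and in 0 with the WESF value above (13.3%). They were COA3 (0.59, SE 0.103, adjusted p = 9.68e-04), UQCC2 (0.43, SE 0.093, adjusted p = 0.00348), MT-CO2 (0.37, SE 0.101, adjusted p = 0.0142), MT-CO3 (0.37, SE 0.109, adjusted p = 0.0212) and CYC1 (0.27, SE 0.072, adjusted p = 0.013). COA3 alone was also beyond 1.5-fold (background 2.13% higher and 1.75% lower). MT-CO3 lost its call without replicate 3 of vehicle B (0.32, adjusted p = 0.0607), and 10 genes were called without replicate 1 of high-dose EESF. For COX19, COX18 and COX20 the difference had 95% intervals of -0.24 to 0.08, -0.28 to 0.12 and -0.18 to 0.21, which hold 0 and leave differences of up to these sizes possible. Vehicle B and vehicle A differed in 0 of the 51 genes in each direction (background 0%, 371 of 13001 genes with an unadjusted p under 0.05; DESeq2 0 of the 51), the mitochondrially encoded values being 0.15 to 0.21 higher in vehicle B. All 19 nuclear-encoded subunits had lower values in vehicle B (median -0.08), and 16 of the 19 had positive values in the difference between the extracts, which contains both vehicles. Over all genes, 6514 of 13001 had lower values in vehicle B, and 6356 of 13376 had negative values in the difference. The 19 genes share libraries and are not replicates, so these signs are a description. With the replicate number as a block, 4 of the 51 genes were higher in vehicle B (the 4 mitochondrially encoded subunits). A further 6 were lower (UQCRC1, UQCRB, UQCRQ, COX4I1, COX5A and COX7B, by 0.09 to 0.13), where the background was 1.82% and 1.86%. Whether the numbers pair the vehicle libraries depended on the genes used for the check. In replicates 1, 2 and 3 the median of the nuclear-encoded subunits, against the mean of the batch's vehicles, was 0.1162, 0.0045 and -0.1302 in vehicle A. In vehicle B it was 0.1144, 0.0209 and -0.133.

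**Figure D5:**
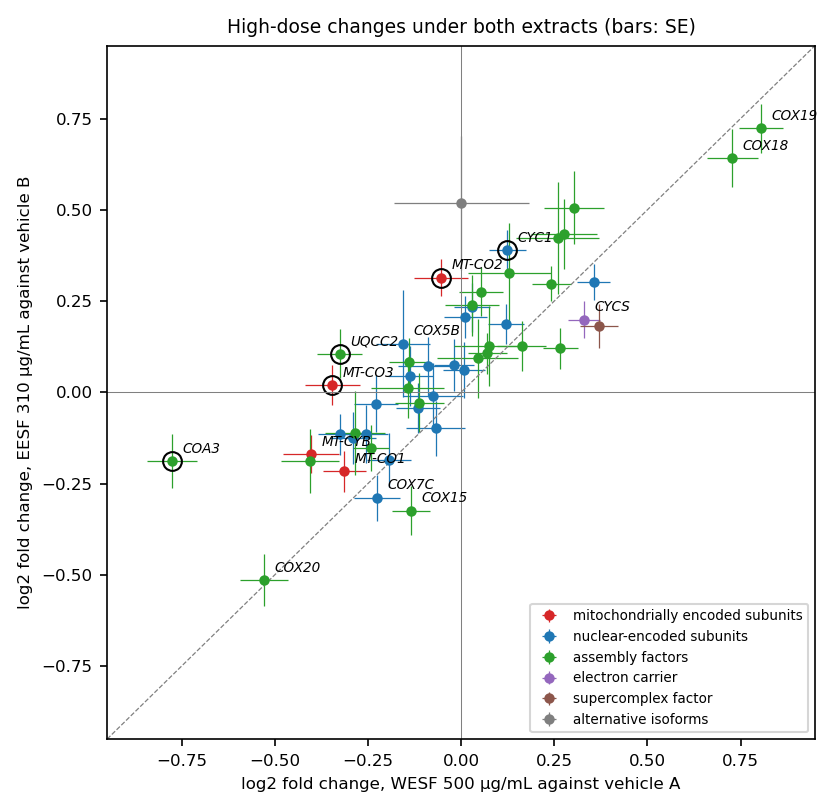
Log2 fold change of each tested gene at 500 µg/mL WESF (x axis) and 310 µg/mL EESF (y axis), each against its own vehicle, with SE bars (n = 3 per group); the dashed line marks equal values, and COX6B2 (1.91 and 1.57) lies outside the axes. The 5 ringed genes, COA3, UQCC2, MT-CO2, MT-CO3 and CYC1, are those whose difference between the extracts passed the test, and all lie above the line.

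Other genes of the same pathway were taken from fixed lists. Of 24 factors of complex III and IV outside the naming rule, 7 rose and 8 fell with WESF and 11 rose and 3 fell with EESF (background 34.3% and 34.6% with WESF, 29.3% and 28.7% with EESF); the 6 whose difference between the extracts passed the test all had the higher value with EESF (background 12.7% and 13.3%). They included TMEM177, a partner of COX20 (-0.38 with WESF, 0.30 with EESF, difference 0.68, adjusted p = 0.00263), BCS1L, which inserts the Rieske protein into complex III (-0.16, 0.43, 0.60, adjusted p = 0.00231), and CHCHD10, an intermembrane-space protein (0.20, 0.75, 0.55, adjusted p = 0.0341). FDX2, a ferredoxin that works in iron-sulfur cluster and heme a synthesis, fell by 0.57 with WESF, and LYRM7, the chaperone of the Rieske protein, fell by 0.50.

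Of 15 regulators of mitochondrial transcription and biogenesis tested, 8 rose and 3 fell with each extract, beside a background of 34.3% and 34.6% with WESF and 29.3% and 28.7% with EESF. PPARGC1A, the coactivator PGC-1α, fell from 2.69, 2.82 and 2.84 CPM in vehicle A to 0.127, 0.542 and 0.307 CPM with WESF (-3.12, adjusted p = 4.91e-08), and from 2.11, 2.40 and 2.79 CPM to 0.354, 0.192 and 0.432 CPM with EESF (-2.89, adjusted p = 2.66e-06). POLG, the mitochondrial DNA polymerase, rose from 33.62, 31.54 and 31.08 CPM to 82.75, 88.65 and 83.62 CPM with WESF (1.40) and by 1.10 with EESF. TFB1M, which methylates mitochondrial ribosomal RNA, rose by 1.40 and 1.15, and POLRMT, the mitochondrial RNA polymerase, by 1.05 and 0.85. TFAM, which packs mitochondrial DNA and starts its transcription, fell by 0.41 and 0.39. High-dose libraries of these 5 genes did not overlap their vehicles.

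Genes of heme synthesis and copper handling were counted in the same way, against the same background. Of 8 genes of heme synthesis, 2 rose and 5 fell with WESF and 3 rose and 4 fell with EESF. ALAD (-0.94 and -0.70) and UROS (-0.90 and -0.53), enzymes of its middle steps, fell, while ALAS1, the first enzyme, rose (0.64 and 0.49). Of 8 genes of copper handling, 3 rose and 2 fell with WESF and 2 rose and 2 fell with EESF, shares near the background. SLC31A1, the copper importer CTR1, rose by 1.31 with WESF and by 0.73 with EESF (difference -0.58, adjusted p = 6.8e-05), ATP7B, a copper exporter, rose by 0.68 with WESF, and ATP7A, its relative, fell by 0.66 and 0.85.

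Markers of cell types were read beside the same background. Of the 7 astrocyte markers tested 1 rose and 5 fell with each extract, among them SLC1A3, a glutamate transporter (-1.62 and -1.39), and NES, nestin (-1.21 and -0.45), while ALDOC rose (0.93 and 0.74). Their summed level went from 7907, 8010 and 8055 CPM to 6930, 6670 and 6735 CPM with WESF and from 8046, 8193 and 8230 CPM to 7461, 7692 and 7660 CPM with EESF, VIM being the most abundant. For fibroblast and smooth muscle genes 1 of 5 rose and 4 fell with WESF and 3 fell with EESF (ACTA2 -1.02 and -0.80, PDGFRB -0.80 and -0.73, COL1A1 -0.37 and -0.16). Of the leukocyte list PTPRC, its most abundant gene in the vehicles, fell (-2.26 and -2.38), as did CSF1R (-1.32 and -0.96), the summed level going from 13.3, 14.3 and 13.9 CPM to 3.47, 3.60 and 3.81 CPM with WESF. Of neuron markers SNAP25 (-1.67 and -1.10) and SYT1 (-0.91 and -1.18) fell. RBFOX3 was at 0.147, 0.0723 and 0.117 CPM in vehicle A and at 0.762, 0.838 and 0.526 CPM with WESF. It was at 0.1547, 0.2046 and 0.05582 CPM in vehicle B and at 0.3535, 0.671 and 0.6646 CPM with EESF. Of the dose comparisons it passed the filter on low counts in that of high-dose WESF alone. MBP of the oligodendrocyte list rose (0.89 and 0.55), and PECAM1 of the endothelial list fell with WESF (-0.76, adjusted p = 0.0418). The part of these shifts in the values above was not tested.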

How the data were processed

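The authors trimmed reads with Trim Galore 0.6.6 after FastQC 0.11.9, aligned them with STAR 2.7.9a to GRCh38 (the methods add hg19) and deposited RSEM 1.3.3 expected counts per gene, not normalized. Some of these values are not whole numbers. RSEM divides reads shared between genes, so copies and overlapping genes are uncertain.

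Symbols, positions and canonical transcript lengths were taken from GENCODE release 44 by Ensembl identifier. Expected counts were rounded, protein-coding genes passing filterByExpr were kept, and each dose was compared with its vehicle on 6 libraries with edgeR 4.0.16 in R 4.3.3 (TMM, quasi-likelihood test, 2-sided, Benjamini-Hochberg over all genes tested). A gene was called at an adjusted p under 0.05; the study's DEG rule adds a fold beyond 1.5. The study's test was DESeq2's, run as an alternative (1.42.0). The SE is the absolute log2 fold change divided by the root of F. CPM values use TMM over all 24 libraries. On simulated high-dose WESF data (13108 genes, 200 changed) edgeR recovered 100% of 2-fold and 4-fold changes, and 3.85% of its calls were unchanged genes. The simulated libraries were independent, with a common dispersion and far fewer changed genes than the real data. Changes below 2-fold were not simulated, so these rates do not cover the smaller changes given here.

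The genes and lists were chosen with earlier results of these data known. Named genes were the redox core, carrier, cofactor factors and COX5B, the 5 largest rises and falls of subunits and of assembly factors per dose, all passing the 1.5-fold rule or the difference between extracts, all below the filter, and 3 per other list; others were named after their values were seen. Replicates differed by more than sampling noise (chi-square per degree of freedom 2.02 to 15.5). Alternatives were DESeq2, its size factors (RLE), no filter, all genes of the table, mitochondrial genes left out of library sizes, all groups in the fit, replicate block, each library left out and the low dose as reference; 2 subsets of members (assembly factors with little exon overlap, nuclear-encoded subunits) and further gene sets for the check of replicate pairing were added after seeing the data.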

Additional observations from a re-analysis of the deposited data

Results flagged for a closer look

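A change that differed between WESF and EESF at their highest doses passed the test for 5 genes, which are listed for that reason (EESF minus WESF, log2, edgeR interaction over 12 libraries). It was 0.59 for COA3, 0.43 for UQCC2, 0.37 for MT-CO2, 0.37 for MT-CO3 and 0.27 for CYC1. COA3, UQCC2 and MT-CO3 fell with WESF, while UQCC2 and MT-CO3 did not pass the test with EESF and MT-CO2 did not pass it with WESF. Extract, dose and batch cannot be told apart in these values.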

How the results depend on the processing

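Of 70 calls of single genes in the dose and extract comparisons, 0 changed sign under the alternatives run, 37 were kept in each and 33 were lost in at least 1; of 338 values not called, the comparison of the vehicles included, 142 changed sign in some fit. RLE size factors and leaving mitochondrial genes out of library sizes lost 0 calls, and DESeq2 lost 9. The low dose as reference kept 42 and lost 14 of the calls it could be run for, and leaving out replicate 2 of vehicle B kept 24 and lost 13.

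With a fold beyond 1.5, calls fell to 3 higher and 1 lower for high-dose WESF and to 3 and 0 for high-dose EESF. Against the low dose, 12 genes were lower with high-dose EESF. DESeq2 left 3 higher at medium-dose EESF. With no filter on low counts 1 gene was higher at medium-dose WESF, 1 lower at low-dose EESF and 1 higher in vehicle B; with all groups in the fit 1 was higher and 0 lower at medium-dose WESF and 1 higher at low-dose EESF; including noncoding genes, 0 were lower at medium-dose WESF.

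Leaving out 1 library gave 9 to 13 higher for high-dose WESF, 0 to 6 higher and 0 to 3 lower for medium-dose WESF, 5 to 12 lower for high-dose EESF, 1 to 10 higher and 0 to 1 lower for medium-dose EESF, 0 to 8 higher and 0 to 1 lower for low-dose EESF, and 4 to 10 higher and 0 to 1 lower for the difference between the extracts. The lowest count for high-dose WESF came without replicate 3 of vehicle A, and the 12 for high-dose EESF without replicate 3 of vehicle B.

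Subunits minus assembly factors (log2 medians) ranged from -0.083 to -0.012 at medium-dose WESF, from -0.138 to -0.067 at high-dose EESF and from -0.028 to 0.016 at medium-dose EESF when 1 library was left out, and was -0.279 for high-dose WESF with assembly factors of little exon overlap. COX5B ranged from -0.066 to 0.073 at low-dose WESF and from -0.030 to 0.195 at low-dose EESF when 1 library was left out, and changed sign, to 0.073 and 0.045 for WESF (without replicate 1 of vehicle A or replicate 3 of low-dose WESF) and to -0.016 and -0.030 for EESF (without replicate 3 of vehicle B or replicate 1 of low-dose EESF).

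Within batches, same-numbered libraries of a dose and its vehicle did not pair (over all pairs of groups, correlation of deviations -0.099 to 0.102, median 0.001 over 36 pairs; -0.151 to 0.136 and -0.393 to 0.238 over genes with a mean of 20 or 100 counts). With a minimum of 20, 100 or 1000 counts in each library, a set added after seeing the data, no dose and its vehicle had all 3 same-numbered pairs over 0.1 either (of the other pairs of groups, high-dose and medium-dose EESF did, at 100 counts, 0.101 to 0.188), so the block was not used for the dose comparisons. Between the vehicles the check was unsettled: over all 13516 genes same-numbered libraries correlated at -0.0114 to 0.0684, and of 6 gene sets tried, chosen after seeing the data, all 3 pairs were over 0.1 in the 3 with a minimum in each vehicle library (0.145 to 0.412 at 20 counts, 0.304 to 0.618 at 100 and 0.631 to 0.884 at 1000, where different-numbered pairs were at -0.776 to 0.0656) and not in the other 3 (0.0673 to 0.411 at a mean of 100). The chi-square per degree of freedom was 3.33 to 3.61 for same-numbered and 4.3 to 11.2 for other vehicle pairs. The replicate block gave 0 lower at medium-dose WESF, 4 lower at high-dose EESF, 1 lower at medium-dose and 1 at low-dose EESF, and 4 higher and 6 lower in vehicle B against vehicle A; it lost 8 of the 70 calls, and COX5B passed the test at high-dose WESF (-0.156, adjusted p = 0.042). The cause of these shifts was not tested.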
